A study of Danio rerio with 12 samples.

Results

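The transcriptome described here is that of control zebrafish larvae at 120 hours post-fertilization (hpf). It was read from 1 RNA-seq library, sequenced on 4 lanes of a NextSeq 500. The members are the 4 lane records labelled Control, of 12 records in the series, and their reads were summed gene by gene to give a single library of 84043873 reads. The other 8 records, labelled IC and Dx-IONP, were not used. The larvae carried the transgene Tg(fli:EGFP), in which a promoter of the endothelial gene fli drives a green fluorescent protein. RNA of 20 larvae was pooled before the poly(A) library was made, so the library is an average over those animals. The labels name the group Control and do not say what these larvae received in place of an exposure. The lanes are repeated sequencing of 1 library, so the biological replicate number is n = 1. No biological error can be given, and no test was made.

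By this age a zebrafish larva has hatched, has inflated or is inflating its swim bladder, and swims and hunts by sight. Its trunk muscle, skin, lens and retina, liver, and embryonic red blood cells are differentiated, while the adaptive immune system and the gonads are immature. Many zebrafish genes exist as duplicates named a and b, left by a genome duplication in the ancestor of teleost fish. Often 1 copy is used more than the other, or the copies are used in different tissues.

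Levels are given as CPM, the reads of a gene per 1000000 reads of the library. A CPM of 1 stood for 84 reads, and a gene with 0 reads could have had up to 0.0357 CPM, the level of 3 reads, which is a one-sided limit. Single lanes held from 20606371 to 21329490 reads. Values were not divided by transcript length, so every order of genes below is an order of reads, in which a long transcript counts for more than a short one at equal numbers of molecules. Intervals are 95% intervals that cover counting error only, exact Poisson for a level and exact Clopper-Pearson for a share. In RNA from whole larvae, fewer cells of a type and less RNA per cell cannot be told apart. A share of reads is therefore no measure of the size of a tissue.

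A small set of genes held most of the RNA. Of 19983 genes in the table, 9 held 10% of the reads, 568 held 50% and 5946 held 90%. The most abundant gene took 2.81% of all reads, the first 10 took 11.13% and the first 25 took 17.5%. At the other end, 3959 genes lay under 1 CPM and together held 0.112% of the reads. The median gene had 10.3 CPM. The share of all genes at 1 CPM or more was 80.2%, the share under 0.1 CPM was 8.40% and the share at 0 reads was 3.99%, and the counts for gene groups below are read beside these values.

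The gene with most reads was pvalb1, a parvalbumin, which binds calcium in fast muscle fibres and speeds relaxation. It had 27964, 28222, 27875 and 28198 CPM in lanes 1 to 4, and 28063 CPM in the summed library (28028 to 28099). Its paralog pvalb2 had 9703, 9724, 9690 and 9740 CPM in the same lanes and came at rank 4. Both genes were lower in lanes 1 and 3 than in lanes 2 and 4. For pvalb2 the lane differences were about the size of counting error, while for pvalb1 they were larger. The keratin gene krt4, active in the outer layer of the larval skin, came at rank 2 with 16491, 16514, 16531 and 16488 CPM by lane. The lipoprotein gene apoa2 came at rank 3 with 13721, 13687, 13721 and 13677 CPM. These 3 leading genes are known from different tissues: muscle, skin, and the tissues that package lipid (liver, intestine and the layer around the yolk).

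The other genes among the first 25 added translation, mitochondrial and cytoskeletal genes to these. Translation was represented by the elongation factor genes eef1a1l1, with 8838 CPM, and eef2b, with 4355 CPM, and by RPLP0, a protein of the ribosomal stalk, with 4105 CPM. The 3 cytochrome oxidase subunits encoded in mitochondrial DNA were MT-CO2 with 7487 CPM, MT-CO1 with 6779 CPM and MT-CO3 with 6031 CPM. Further lipoprotein genes were apobb.1 with 7335 CPM, apoa1b with 6828 CPM, apoa1a with 5082 CPM and apoc1 with 3277 CPM. Further keratin genes were krt5 with 5643 CPM and krt1-19e with 5579 CPM. Muscle added MYL11, a fast myosin light chain, with 5344 CPM, the creatine kinase gene ckmb with 4870 CPM, the sarcomeric actin gene actc1b with 3640 CPM and the tropomyosin gene tpma with 2960 CPM. The cytoplasmic actins actb2 and actb1 stood next to each other at 4509 and 4365 CPM. The remaining places went to the chaperone gene HSPA8 with 3775 CPM, the chromatin protein gene hmga1a with 3752 CPM, and OPN1SW, a short-wavelength cone opsin, with 2751 CPM. Between lanes these genes varied little: the median coefficient of variation over 4 lanes was 0.536% for the 100 genes with most reads.

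**Figure D1:**
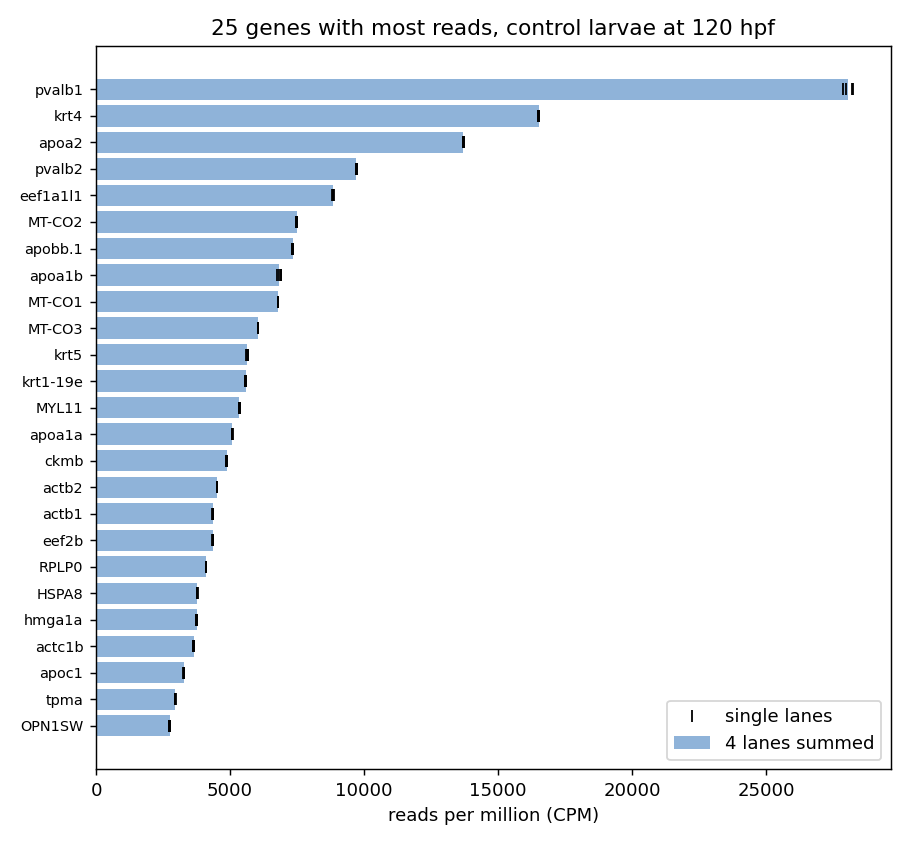
The 25 genes with most reads in the control library. Bars give CPM of the 4 lanes summed on a linear axis from 0, and ticks give the single lanes. The ticks lie close together at every gene, and pvalb1 at 28063 CPM stands well above krt4 at 16506 CPM.

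Fast skeletal muscle had the largest share of reads of the 26 tissue lists. Its 38 matched genes held 7.15% of all reads (7.142% to 7.153%; 7.13% to 7.17% by lane), and all 38 were at 1 CPM or more. Their median was 304 CPM, against 10.3 CPM for all genes. The top 4 genes, pvalb1, pvalb2, MYL11 and ckmb, held 67.1% of the list. The list's lowest gene was NEB, the giant thin-filament protein nebulin, with 1.44 CPM. NEB had 39, 45, 12 and 25 reads in lanes 1 to 4, so its value is unsteady. Whether this row shows the true level of nebulin RNA was not tested. The slow fibre list, 14 genes, held 0.291%, led by the light chain genes myl10 with 1009 CPM and myl13 with 585 CPM, the tropomyosin gene TPM2 with 471 CPM and the slow myosin gene smyhc1 with 381 CPM. Among myosin heavy chains, the 6 fast genes held 0.380% of all reads and the 2 slow genes 0.0485%. The heart list held 0.0208% over 20 genes, with 17 at 1 CPM or more. It was led by MYH6 with 64.5 CPM, the calcium pump gene atp2a2a with 28.5 CPM and the transcription factor gene HAND2 with 26.1 CPM. Of these, atp2a2a and HAND2 are also used outside the heart. Next came TNNI1 with 22.3 CPM, which is also on the slow fibre list. Without genes on other tissue lists the heart share was 0.0185%. BMP10, a growth factor of the developing heart, was listed at 0.

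Within the muscle families a few members took most of the reads. Of 8 parvalbumin genes, pvalb1 held 71.7% of the family's reads and pvalb2 24.8%, while pvalb7 had 12.3 CPM. The 5 genes that carry the symbol TNNI2, the fast inhibitory troponin, ranged from 1756 CPM (ENSDARG00000029069) to 2.38 CPM. Of 9 actin genes the first 4, actb2, actb1, actc1b and ACTA1 (ENSDARG00000055618, 2244 CPM), held 91.6% of the family. Of 19 myosin heavy chain genes, myhz1.1 with 2247 CPM held 45.5%, followed by myhz1.2 with 667 CPM and myhz1.3 with 626 CPM. Near-identical copies such as these can share reads, and the split between copies is then uncertain.

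In the skin, keratins led. The epidermal list of 25 genes held 2.93% of all reads, with 24 at 1 CPM or more and a median of 173 CPM. Of the 20 keratin genes, which form the intermediate filaments of epithelia, krt4 held 49.4%, krt5 16.9% and krt1-19e 16.7% of the family's reads. The next was krt91 with 1492 CPM, and the lowest were krt95 with 0.155 CPM and krt93 with 0.0714 CPM. Ionocytes, the skin cells that take up salts and pump acid, had a list of 17 genes, all at 1 CPM or more, with 0.113% of the reads. Its members included ATP6V1A, a proton pump subunit that other tissues also use, with 363 CPM. The 7 mucous cell genes held 0.0187%, led by AGR2 with 129 CPM and the mucin genes muc5.2 with 18.7 CPM and muc5.1 with 17.99 CPM.

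Genes of the liver and of lipid transport held the second largest tissue share. The 45 genes of the liver list held 4.44% (4.439% to 4.448%), with 40 at 1 CPM or more, and 74.2% of the list came from apoa2, apobb.1, apoa1b and apoa1a. With the 10 genes with most reads left out of the library, the liver share was 1.86%, that of fast muscle 3.79% and that of the epidermis 1.44%. The 4 leading lipoprotein genes are also active in the intestine and around the yolk, so the list does not stand for hepatocytes alone. Over the 19 apolipoprotein genes together the share was 4.35%, and the lowest was apoc4 with 0.0952 CPM. The non-lipoprotein genes of the liver list were lower than its 4 leading lipoprotein genes, though not lower than every lipoprotein gene. The vitamin A carrier RBP4 had 1957 CPM, against 1002 CPM for apoea. The hepatocyte marker fabp10a had 177 CPM, against 5.06 CPM for its paralog fabp10b. The lowest of the liver list was G6PC1, of glucose release, with 0.0119 CPM, which is 1 read. The intestine list of 34 genes held 0.263%, led by the lipoprotein gene apoa4b.1 with 1730 CPM, FABP1 with 223 CPM, FABP2 with 162 CPM and the villus protein gene VIL1 with 144 CPM.

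**Figure D2:**
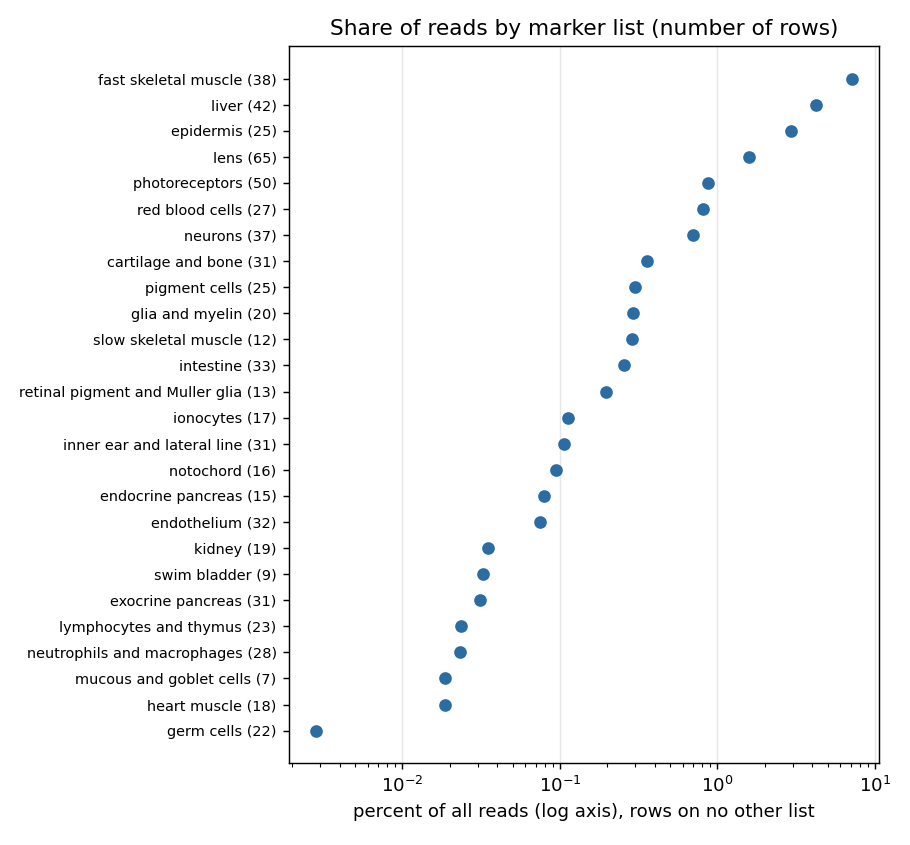
Share of all reads held by each of 26 tissue lists, on a log axis, counting genes found on no other tissue list; the number of those genes stands in parentheses. Fast skeletal muscle (7.15%), liver (4.23%) and epidermis (2.93%) lie at the top, and germ cells (0.00283%) at the bottom.

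Translation and energy supply took large shares of the reads. The 76 genes matched by name as cytosolic ribosomal proteins held 4.70% of the reads. All 76 were at 1 CPM or more, with a median of 412 CPM. The top 4 of these 76, RPLP0, RPL13A with 2554 CPM, RPLP1 with 2308 CPM and RPL4 with 2207 CPM, held 23.8%. RPL36AL, another ribosomal protein gene, had 2416 CPM but was not among the 76, so the family share is incomplete. The 13 genes of mitochondrial DNA held 2.91%, of which MT-CO2, MT-CO1 and MT-CO3 held 25.7%, 23.3% and 20.7%. The lowest was MT-ND6, the gene on the opposite strand from the other protein genes, with 4.07 CPM. The 109 nuclear genes of oxidative phosphorylation held 1.49%, with 0.603% in the ATP synthase (complex V), 0.311% in complex IV, 0.267% in complex I, 0.149% in complex III and 0.0506% in complex II. The highest of them was atp5mc1, of the ATP synthase rotor, with 1253 CPM. Histone genes differed by class. The 10 replacement-type genes, such as H3-3B with 495 CPM, held 0.355%, and 9 of them were at 1 CPM or more; the exception, h2ax2, had 0.0119 CPM. Of the 15 replication-type genes, whose transcripts usually lack the poly(A) tail by which this library was selected, 14 were under 1 CPM and hist2h2l had 112 CPM. The part of that selection in these counts was not tested.

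The eye added lens and retina genes. The lens list of 65 genes, mostly crystallins, held 1.59%, with 49 at 1 CPM or more and 4 at 0 reads. Its 21 copies of crygm2d, a gamma crystallin of the fish lens, held 1.26% by themselves. These copies ranged from 151 CPM for crygm2d14 to 2441 CPM for crygm2d10, all at 1 CPM or more. The crygm2d copies were not among the original entries of the list, to which crystallins were added after values were seen. With current symbols only, a setting that also leaves out added genes, the lens share was 0.204%. The near identity of the crygm2d copies makes the split between them uncertain. The beta crystallins were led by cryba1b with 625 CPM, and CRYAA, the lens alpha crystallin, had 65.3 CPM.

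Photoreceptor genes, 50 in the list, held 0.874%, with 43 at 1 CPM or more. Among 10 visual opsin genes the reads were concentrated on 3 cone opsins. OPN1SW had 2734, 2758, 2772 and 2738 CPM in lanes 1 to 4 and held 63.0% of the opsin reads. The long-wavelength opsin gene opn1lw2 had 1060 CPM and held 24.3%, and the medium-wavelength opsin gene opn1mw1 had 527 CPM and held 12.1%. Of the tandem copies, opn1mw2 had 14.4 CPM, opn1lw1 0.214 CPM, opn1mw3 0.190 CPM and opn1mw4 0.0357 CPM. A separate short-wavelength opsin gene, opn1sw2, was listed at 0, which need not mean absence. The ratio of cone to rod reads differed between components of the phototransduction pathway: it was 12.6 for arrestins, 8.63 for the catalytic phosphodiesterase subunits, 2.68 for the transducin alpha subunits and 0.914 for the phosphodiesterase gamma subunits. Of these 4 components the arrestins had the largest ratio and the phosphodiesterase gamma subunits the smallest. Retinal pigment and Muller glia genes held 0.419%, and 0.196% when apoeb and cahz, which are also on other lists, were left out.

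**Figure D3:**
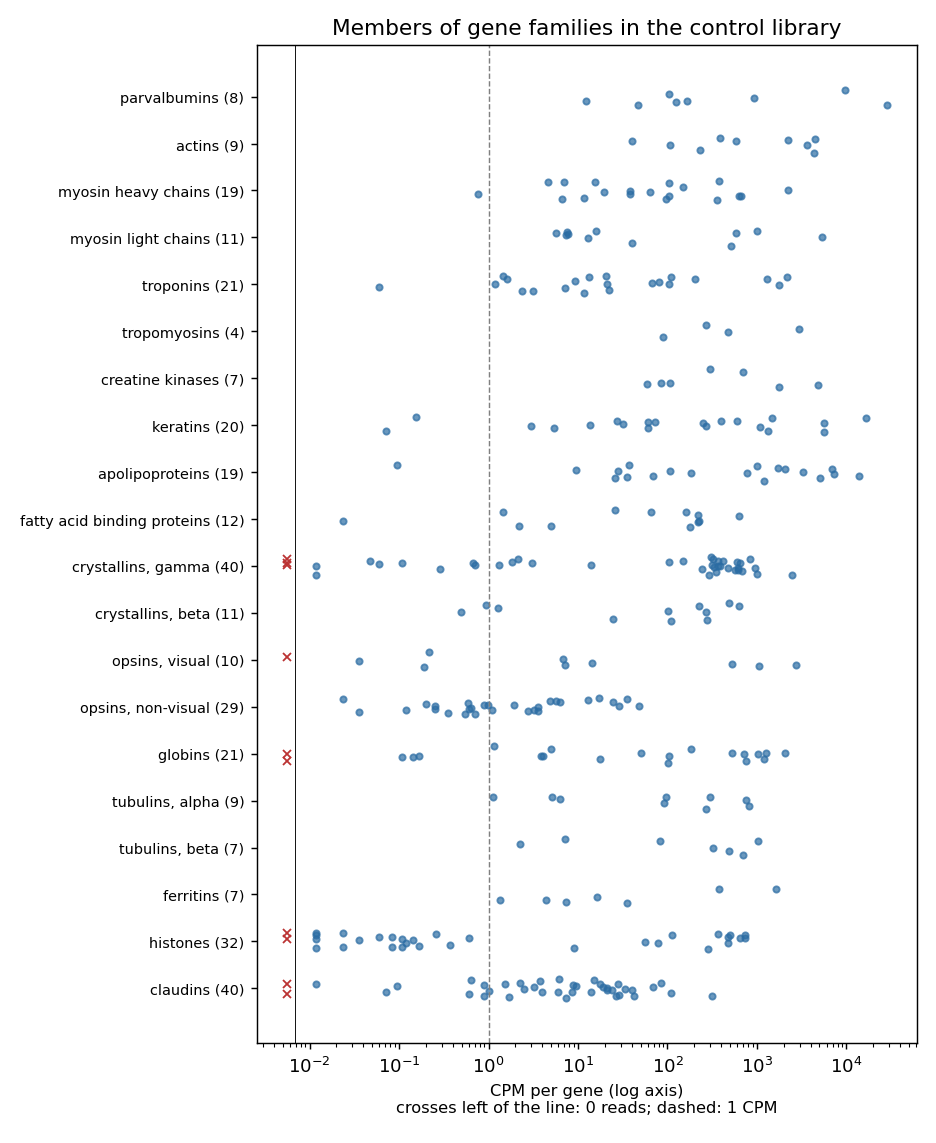
Members of 20 gene families in the control library, each point a gene, with CPM on a log axis; crosses mark genes with 0 reads and the dashed line marks 1 CPM. Parvalbumins reach 28063 CPM, keratins and globins each combine genes above 1000 CPM with genes under 1 CPM, and histone genes lie both above 100 CPM and under 1 CPM.

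Red blood cell genes held 0.830%, nearly all in genes named as embryonic globins. Of 7 beta globin genes with the human-style symbol HBE1, 1 was listed at 0. The others had 2064 CPM (ENSDARG00000113599), 1259, 1022, 718, 0.167 and 0.143 CPM. That symbol does not show which of the 7 are embryonic in zebrafish, and no gene carried an adult beta globin symbol. The embryonic alpha globins were led by hbae3 with 1210 CPM and hbae1.3 with 759 CPM. The 2 adult alpha globins were at the edge of detection: hbaa1 had 0.107 CPM and hbaa2 was listed at 0.

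Neuronal genes, 37 in the list, held 0.697%, with 35 at 1 CPM or more. The highest were tuba1c, an alpha tubulin of neurons, with 817 CPM, sypa, a synaptic vesicle protein, with 737 CPM, the beta tubulin gene tubb5 with 706 CPM and SYT1, the calcium sensor of transmitter release, with 623 CPM. Among genes of transmitter identity, SLC32A1, the carrier for inhibitory transmitters, had 167 CPM and SLC17A6, a glutamate carrier, 160 CPM, while TH, of dopamine synthesis, had 10.01 CPM, TPH2, of serotonin synthesis, 8.10 CPM, and DBH, of noradrenaline synthesis, 1.89 CPM. These 5 were chosen after their values were seen. Glial genes held 0.301%, led by the glutamate transporter SLC1A2 with 1172 CPM, FABP7 with 632 CPM and GFAP with 535 CPM. The myelin gene mbpb had 178 CPM and its paralog mbpa 29.4 CPM.

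Other organs took small shares. With current symbols only, without synonyms, human-style symbols and genes added to the lists, shares were lower by over 1.5 times for photoreceptors (0.403%), red blood cells (0.321%), cartilage and bone (0.153%), glia (0.101%), the endothelium (0.0307%) and ionocytes (0.0101%). Cartilage and bone held 0.383%, led by the collagen genes COL1A1 with 1042 CPM, COL2A1 with 900 CPM and COL1A2 with 678 CPM. In RNA of whole larvae, the tissue that made these collagen reads cannot be told. Pigment cell genes held 0.301%, led by the melanosome gene pmela with 792 CPM and TYRP1 with 766 CPM. The inner ear list held 0.106%, of which stm, an otolith matrix protein, had 557 CPM. The endothelial list of 32 genes held 0.0742%, with 29 at 1 CPM or more, led by EFNB2 with 166 CPM and AQP1 with 70.0 CPM; FLI1, an endothelial transcription factor, had 25.3 CPM, and flt1 was listed at 0. Another leading gene of the list, NOTCH1 (ENSDARG00000103554), had 784, 944, 1728 and 745 reads in lanes 1 to 4, so its value is unsteady. The notochord list held 0.120%, led by mybphb with 332 CPM and CAV1, of the membrane pits that line notochord cells, with 276 CPM. Whether the reads of mybphb and CAV1 came from the notochord was not tested. Without genes on other tissue lists the notochord share was 0.0940%. The swim bladder list held 0.0426%, with all 11 genes at 1 CPM or more; its highest genes, anxa5b with 116 CPM and the smooth muscle actin acta2 with 106 CPM, are also used elsewhere, and the surfactant genes sftpbb and sftpba had 5.44 and 1.39 CPM. The kidney list held 0.0437%, led by CDH17, which is also on the intestine list, with 85.6 CPM and podxl with 69.3 CPM. Without genes on other tissue lists the kidney share was 0.0351%. The podocyte gene NPHS1 had 1.345 CPM. The exocrine pancreas list held 0.0311%, and 19 of its 31 genes reached 1 CPM, led by the trypsin gene prss59.2 with 73.0 CPM and the carboxypeptidase gene CPA1 with 42.1 CPM.

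Most genes of dividing cells were measured, as were most genes of the table. Of 31 cell cycle genes, 28 (90.3%) were at 1 CPM or more, against 80.2% of all genes. The 31 genes held 0.228% of the reads with a median of 36.4 CPM. The highest were PCNA, the sliding clamp of DNA replication, with 490 CPM, mki67 with 352 CPM, the cyclin gene CCND1 with 230 CPM and the mitotic kinase gene plk1 with 137 CPM. Of 8 genes of the MCM replication helicase, 6 lay between 42.5 CPM for MCM7 and 94.5 CPM for MCM4, mcm3l had 0.880 CPM and a second MCM6 gene had 0.107 CPM. Among 22 Sox transcription factor genes, the reads lay on SOX4 (ENSDARG00000004588) with 816 CPM, SOX11 with 562 CPM, a second SOX4 gene with 445 CPM and a second SOX11 gene with 416 CPM, and sox32 was listed at 0.

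The 364 solute carrier genes held 1.27%, with 312 at 1 CPM or more, led by SLC25A5, which exchanges ATP and ADP across the inner mitochondrial membrane, with 2048 CPM. The 77 cytochrome P450 genes held 0.113%, with 62 at 1 CPM or more; cyp2y3 was highest with 162 CPM. Of 21 glutathione transferase genes, gstp1.2 with 633 CPM and gstt1a with 360 CPM led, and gstp1.1 had 11.76 CPM. Of 7 ferritin genes, which code for the iron store of the cell, fth1a with 1652 CPM held 79.1% and fthl27 with 373 CPM held 17.8% of the family's reads, and the other 5 lay between 1.33 and 35.4 CPM. Of 40 claudins, the seal-forming proteins of tight junctions, 31 were at 1 CPM or more, led by the epidermal gene cldni with 314 CPM, and cldn7b and cldn10e were listed at 0. Of 40 collagen genes, 35 were at 1 CPM or more, and a separate gene named col1a1a had 0.464 CPM beside COL1A1 with 1042 CPM.

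Multigene families of immune and sensor proteins differed in how much was measured. Of 141 TRIM and finTRIM genes, 74 were at 1 CPM or more, with a median of 1.15 CPM and TRIM8 highest with 96.2 CPM. Of 57 NLR and other immune multigene rows, 15 were at 1 CPM or more, 12 were at 0, and the median was 0.119 CPM. Of 29 genes grouped by name as non-visual opsins, 15 were at 1 CPM or more, led by RGR with 47.5 CPM and rgrb with 35.4 CPM. In the same group opn7a had 0.0238 CPM.

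Levels of hormone genes ranged widely. In the endocrine pancreas, ins (insulin) had 24.3 CPM, gcga (glucagon) 10.5 CPM and sst1.2 (somatostatin) 10.03 CPM, while insb had 0.202 CPM. Of 14 pituitary hormone genes, 5 were at 1 CPM or more, and the highest, a gene not named here, had 32.0 CPM. Below it, gh1 (growth hormone) had 3.05 CPM, POMC 2.77 CPM and prl (prolactin) 2.42 CPM. TSHB had 0.178 CPM and lhb, of the reproductive axis, was listed at 0. Of 42 neuropeptide genes, 32 were at 1 CPM or more, a share close to that of all genes. They were led by adcyap1b with 189 CPM, and included oxt (oxytocin) with 4.49 CPM, avp (vasopressin) with 1.99 CPM, HCRT (hypocretin, of wakefulness) with 0.0833 CPM and the reproductive peptides gnrh3 with 0.880 CPM and kiss1 with 0.0714 CPM. Of 41 other hormone genes, 19 were at 1 CPM or more, and the highest had 97.5 CPM. The appetite and blood hormones lepa with 0.131 CPM and epoa with 0.0357 CPM were near the floor.

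Several lists held many barely detected genes. Of 142 odorant receptor genes, each used by few sensory neurons, 6 were at 1 CPM or more, 87 were under 0.1 CPM and 44 were at 0 reads. Of 130 vomeronasal and trace amine receptor genes, 2 were at 1 CPM or more and 62 were at 0. Of 29 genes of the oocyte and egg, 4 were at 1 CPM or more. They included vtg7, a vitellogenin (yolk protein precursor), with 9.63 CPM, against at most 0.547 CPM in the 6 other vitellogenin genes. Of 22 germ cell genes, 11 were at 1 CPM or more, from PIWIL1 with 4.78 CPM, which silences transposons, down to nanos2, listed at 0. Of 23 genes of the early embryo, 7 were at 1 CPM or more; GSC had 12.6 CPM, while nanog had 0.0238 CPM and dharma, ndr1, mxtx1 and sox32 were listed at 0.

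Lymphocyte genes were also near the floor. Of 23 genes of lymphocytes and thymus, 6 were at 1 CPM or more. TOX, which neurons also use, made up most of that list with 202 CPM; RAG1, which starts antigen receptor rearrangement, had 4.19 CPM and the thymus epithelial gene foxn1 4.91 CPM. The T cell genes cd8a and cd8b and the antibody gene ighd were listed at 0. More of the innate immune list was measured: 24 of 32 genes of neutrophils and macrophages were at 1 CPM or more. That share was slightly under the 80.2% of all genes, so it stands out only beside the lymphocyte list. In the innate list lyz (lysozyme) had 36.2 CPM, and the list held 0.0232% of the reads without genes on other lists. Of 22 interferon and antiviral genes, 7 were at 1 CPM or more, and ifng1 and ifnphi2 were listed at 0. Of 8 genes of the hatching gland list, which held 0.0613%, 5 were at 1 CPM or more. They were led by XBP1 with 400 CPM, CD63 with 156 CPM and PRDM1 with 44.5 CPM, which other tissues also use, while the hatching enzyme gene he1.3 was listed at 0 and ctslb had 0.155 CPM.

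**Figure D4:**
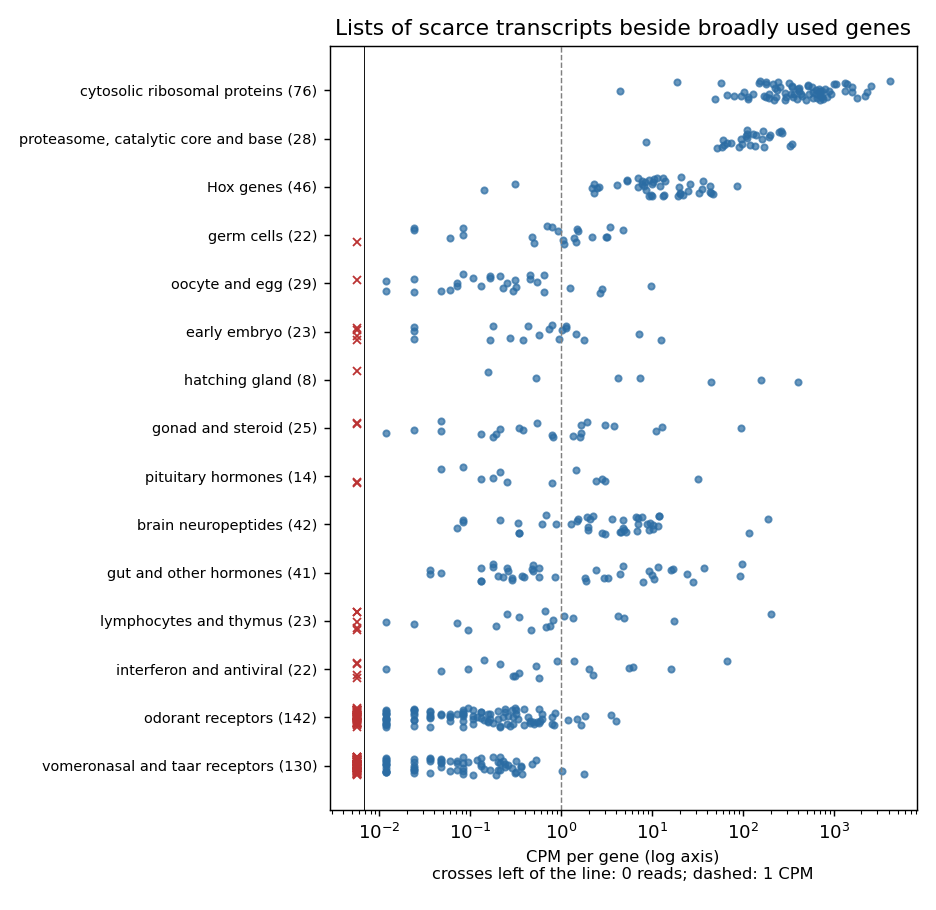
CPM of each gene (log axis) in lists of scarce transcripts, below 3 lists of widely used or patterning genes; crosses mark 0 reads and the dashed line 1 CPM. All 76 matched ribosomal protein genes lie right of the line, while 136 of 142 odorant receptor genes lie left of it.

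By contrast, genes that pattern the body axis remained measurable. Of 46 Hox genes, the transcription factors that set position along the body axis, 44 were at 1 CPM or more. Their median was 10.4 CPM, close to that of all genes. HOXB8 was highest with 86.6 CPM, and the medians per paralog group ran from 2.45 CPM in group 13 to 44.9 CPM in group 3. The lowest were hoxb1a with 0.309 CPM and a second HOXA11 gene with 0.143 CPM.

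A value of 0 in the table need not mean absence. Of 233 genes for 8 protein complexes, 229 were at 1 CPM or more and 4 were under it, of which 1 was listed at 0. These complexes are widely used, except the MCM helicase, which serves dividing cells. Of the 205 genes whose symbol was held by 1 row, 203 were at 1 CPM or more and 0 were at 0 reads. The gene listed at 0 was 1 of 2 rows named POLR2E, a subunit of RNA polymerase II, and the other row had 32.9 CPM. The proteasome entered these counts only by its catalytic core and base, 28 genes, all at 1 CPM or more. Of 44 genes in the wider proteasome family, 4 were under 1 CPM and 3 were at 0. NDUFB4, of complex I, and cycsa, a somatic cytochrome c, were also listed at 0. A gene listed at 0 was therefore given no fold against any other. Of the 797 genes at 0 reads, 138 had no symbol and 169 had a clone-based name.

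Genes paired by name were mostly used unequally. The table held 513 pairs of symbols that differ only in a final a or b, and 474 of them reached 1 CPM summed. Pairs were taken by name only, and how many are teleost duplicates was not tested. Some, such as cox8a and cox8b, are older isoforms named in the same way. In 145 pairs (30.6%) a single member held at least 90% of the pair's reads, and in 89 pairs (18.8%) the higher member held under 60%. The median pair had 79.1% in its higher member. Neither letter prevailed: a was higher in 247 pairs and b in 227, and among the unequal 145 pairs a led in 73 and b in 72. The lower member of those pairs was under 1 CPM in 73 and at 0 reads in 12. In those 12 pairs the 0 may be a failed estimate, and the inequality is then uncertain.

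The 10 pairs with most reads ranged widely. In apoa1, the main protein of high-density lipoprotein, b held 57.3% (57.1% to 57.5% by lane). In the muscle creatine kinase pair ckm, b held 73.3%, and in the actin pair actc1, b held 86.1%. The pair hmga1 was the most unequal of the 10, with 94.1% in a. The others were ptma with 56.3% in a, apoe with 67.1% in b, hmgn1 with 72.7% in b, calm3 with 75.6% in b, ywhaq with 78.2% in b and eif4a1 with 53.0% in a. The pairs with most reads among those under 60% were apoa1, ptma, eif4a1, hmgb1, hnrnpa0, marcksl1, gnb1, cnbp, atf4 and capza1, and the most even of these was hnrnpa0, an RNA-binding protein pair, with 51.0% in b. In some pairs nearly all reads lay on 1 member: pdha1a, of pyruvate oxidation, had 247 CPM and pdha1b was listed at 0, cycsb had 387 CPM against cycsa at 0, and fkbp1aa had 700 CPM against 4.71 CPM for fkbp1ab. These 3 pairs were chosen after their values were seen. The 0 of pdha1b and that of cycsa may be failed estimates, and the inequality of those pairs is then uncertain. Among the 1124 symbols carried by exactly 2 rows, 331 (29.4%) had at least 90% of their reads in 1 row.

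**Figure D5:**
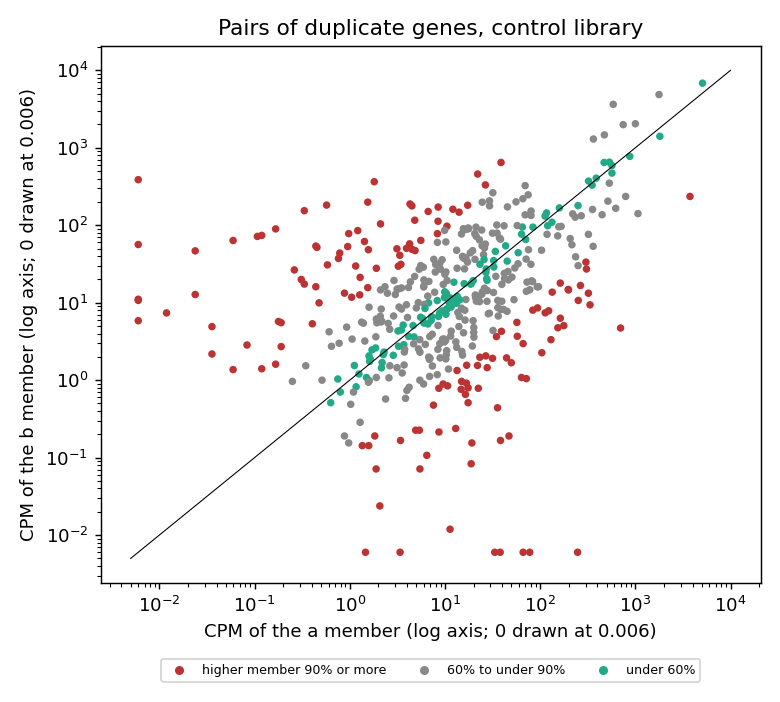
CPM of the a member against CPM of the b member for the 474 pairs at 1 CPM or more summed, on log axes. Values of 0 are drawn at 0.006, and the line marks equality. Red points have 90% or more of the pair's reads in 1 member, green points under 60%, and red points lie on both sides of the line.

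Lanes of the same library differed slightly more than sampling noise at the typical gene and well beyond that noise at a minority. Among 10103 genes at 10 CPM or more, the chi-square statistic per degree of freedom over the 4 lanes had a median of 0.987, where sampling noise alone gives 0.789. It exceeded 10 at 220 genes (2.18%), and at 29 genes the highest lane was at least 2 times the lowest. The statistic grows with the number of reads, so a high value need not mean a large difference. Of the 100 genes with most reads, 5 exceeded 10, among them pvalb1 with 22.1 (27875 to 28222 CPM by lane). Another was apoa1b with 16.2 (6734 to 6885 CPM by lane). OLFM2 had 2125, 3792, 1821 and 1140 reads in lanes 1 to 4, and NLGN1, a synaptic adhesion gene, had 770, 44, 41 and 351 reads. For NLGN1, lanes 1 and 4 were high and lanes 2 and 3 low, and its summed value is not reliable.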

How the data were processed

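Poly(A) RNA of 20 pooled larvae per group gave 1 library per group, each run on 4 lanes, per the labels' protocols. The authors deposited estimated counts per gene, whole numbers in the table. The submitters' processing notes name Salmon 1.6.0, the build GRCz11, FastQC, R 4.1.2 and DESeq2 1.34.0, with no roles. The step that summed transcripts to genes is not stated. The 4 Control columns were summed, and the 8 columns of other groups were not used. With 1 library there is no test, and no filter was applied. CPM divides by all reads. Of 19983 rows, 801 had no symbol and held 0.405% of the reads, and 1186 symbols were shared by 2450 rows. Many rows carry human-style symbols; where rows share a symbol, the value is that of the row with most reads unless stated. For the marker lists, 869 of 1069 entries matched a row, 644 by symbol, 89 by synonym and 136 by the name without its paralog letter. The scripts, tested on simulated data, ran under Python 3.11.15 (scipy 1.17.1, numpy 2.4.6, pandas 2.3.3).

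Members and lists were chosen with earlier results of these data known. Some family patterns were corrected, complexes were added, and MYL11, OPN1SW, HBE1 and crystallins were added to lists, after values were seen. Named genes are the 25 with most reads, the up to 4 highest, the lowest and the undetected members of each list, any member of the hormone, neuropeptide and germ cell lists, and the 10 pairs with most reads overall and under 60%. Other genes named, among them further opsins, globins, paralogs and genes that differ between lanes, were chosen after their values were seen. Alternatives left out each lane, changed thresholds and denominators, and matched current symbols only. Some genes are not reported here.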

Additional observations from a re-analysis of the deposited data

Results flagged for a closer look

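Of 331 results checked over the 4 lanes, 93 shares and 238 gene levels, 19 had a lane far from the other lanes (5.74%), where chance gives about 1 in 20. Lanes are runs of 1 library, so these gaps are run error and counting error. Lane 2 stood apart in 7 of the 19, lane 3 in 5, lane 4 in 4 and lane 1 in 3.

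Among the shares, neutrophils and macrophages (0.242%) had 0.244% in lane 2 against 0.2407% to 0.2411% in the others; 84.6% of this share is apoeb, which stood apart in the same lane, and without genes on other lists the share was 0.0232%. The cytosolic ribosomal proteins (4.70%) had 4.71% in lane 3 against 4.691% to 4.692%. The mitochondrially encoded genes (2.91%) had 2.917% in lane 4 against 2.910% to 2.911%. The myosin heavy chains (0.494%) had 0.4947% in lane 3 against 0.4936% to 0.4937%. The odorant receptors (0.00317%) had 0.00424% in lane 2 against 0.00274% to 0.00295%. The chaperonin CCT (0.223%) had 0.221% in lane 2 against 0.2235% to 0.2237%.

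Among the genes, apoeb (2044 CPM) had 2063 CPM in lane 2, ckma (1774 CPM) had 1799 CPM in lane 3 and mbpb (178 CPM) had 168 CPM in lane 2. PIWIL1 (4.78 CPM) had 3.59 CPM in lane 2 and hoxb1a (0.309 CPM) had 0.237 CPM in lane 4. In lane 1, sftpba (1.39 CPM) had 0.999 CPM and col1a1a (0.464 CPM) had 0.571 CPM. The remaining genes held a few reads each: epoa (0.0357 CPM) and G6PC1 (0.0119 CPM) had all their reads in lane 4, nanog (0.0238 CPM) had all in lane 3, opn7a (0.0238 CPM) had all in lane 1, h2ax2 (0.0119 CPM) had all in lane 2, and a second AQP1 gene (0.0357 CPM) had none in lane 3. With 1 read each, G6PC1 and h2ax2 had to have a lane apart, and genes with so few reads cannot be read against the chance rate.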

How the results depend on the processing

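Leaving out 1 lane at a time kept the genes holding 50% of the reads at 568, the genes at 1 CPM or more between 16020 and 16044, the genes at 0 reads between 861 and 883 and the unequal pairs between 141 and 144. The shares stayed at 7.141% to 7.154% for fast muscle, 2.926% to 2.929% for epidermis, 4.440% to 4.448% for liver and 4.692% to 4.698% for ribosomal proteins. A threshold of 10 CPM left 10103 genes, and 3 reads or fewer gave 1256 genes where 0 reads gave 797. With a limit of 75% in place of 90%, 267 pairs were unequal. Without mitochondrially encoded reads, fast muscle had 7.36%, epidermis 3.02%, liver 4.58% and ribosomal proteins 4.84%. Without the 10 genes with most reads, they had 3.79%, 1.44%, 1.86% and 5.28%, and 810 genes held 50%. With current symbols only, and without genes added to the lists, fast muscle had 5.79%, epidermis 2.91% and liver 4.24%. In that setting the lens list had 0.204% and the ionocyte list 0.0101%. Reads per kilobase of coding length were not run, since no transcript or protein lengths were used here. No paired analysis was possible because the control group is a single library and no test was made. Genes under 0.1 CPM rest on at most 8 reads.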
